A study of Mus musculus with 12 samples.

Results

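Glycolysis splits glucose into pyruvate in the cytosol, and a cell that turns the pyruvate into lactate can make ATP without oxygen. Hypoxia-inducible factor 1 (HIF-1) is the transcription factor that raises the genes of this pathway when oxygen falls. Its alpha subunit, encoded by Hif1a, is made all the time, and in oxygenated cells the prolyl hydroxylases of the Egln family mark it for destruction, so that most of its control lies in protein stability and not in the messenger RNA. Tumour cells, neuroblastoma cells among them, commonly run glycolysis at a high rate also with oxygen present.

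The levels of 36 glycolysis and hypoxia response genes were followed in N2a cells, a mouse neuroblastoma line of sympathetic origin. The genes were listed by name as glycolytic enzymes, glucose and lactate transporters, HIF and its hydroxylases, and HIF targets; no measured value enters the rule, but the list was drawn up with earlier results of these data known. Of the 24318 rows in each deposited table, 35 matched a gene by its name, and the row Pkm was taken for Pkm2, which RefSeq lists as an older symbol of it. Cells received brain-derived extracellular vesicles (BDEVs), the small membrane-bound particles that cells release, of the SE group (SE-BDEV, 4 libraries), BDEVs of the CON group (CON-BDEV, 4 libraries), or vehicle (Vehicle, 4 libraries). The title of the series ties SE to status epilepticus, which is a prolonged seizure, and what CON abbreviates is not spelled out. All 12 libraries were made from polyadenylated RNA of the same line. The labels name no other agent, dose or time, and whether replicate libraries stand for separate cultures or vesicle preparations is not said. The p-values therefore measure only the spread between these libraries, which may be technical.

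Expression is given in FPKM, the fragments on a gene scaled to its transcript length and to the mapped fragments of the library. From the lowest nonzero values, an SE-BDEV library held an estimated 13000000 to 15600000 fragments, a CON-BDEV library 12800000 to 14600000 and a Vehicle library 15200000 to 16400000. All 9 markers of sympathetic neuroblastoma that were examined stood above 1 FPKM on average, and together they reached 655 to 757 FPKM in SE-BDEV libraries, 696 to 767 in CON-BDEV libraries and 690 to 703 in Vehicle libraries. For 5 of the 9 (Dbh, Ddc, Phox2a, Gata3 and Chga) all BDEV libraries lay above all Vehicle libraries. Of 11312 genes that averaged 1 FPKM or more, 285 lay wholly above Vehicle in this way and 302 wholly below (5.19% together). Dbh, for example, averaged 6.82 FPKM over SE-BDEV libraries, 6.77 over CON-BDEV libraries and 4.50 over Vehicle libraries. The part of these marker differences in the results was not tested. The 6 astrocyte markers together reached 0.0705 to 0.235 FPKM in SE-BDEV libraries, 0.0527 to 0.116 in CON-BDEV libraries and 0.0246 to 0.263 in Vehicle libraries. Among them Gfap was higher in every SE-BDEV library (0.0518 to 0.133 FPKM) than in CON-BDEV (at most 0.0265) and Vehicle (at most 0.0254). The groups overlapped for the other astrocyte markers. The 5 microglia markers summed to at most 0.0995 FPKM in any library and the 5 red blood cell markers to at most 0.330. Sums were higher for 5 oligodendrocyte markers (5.88 to 6.51 FPKM in SE-BDEV, 5.82 to 6.84 in CON-BDEV, 5.86 to 6.07 in Vehicle), mostly Mbp. They were also higher for 6 forebrain neuron markers (5.11 to 6.02 FPKM in SE-BDEV, 4.89 to 6.02 in CON-BDEV, 5.81 to 6.28 in Vehicle), mostly Camk2a, and for 5 endothelial markers (2.54 to 3.58 FPKM in SE-BDEV, 3.11 to 3.57 in CON-BDEV, 2.93 to 3.51 in Vehicle), mostly Pecam1. The groups overlapped in each of these sums. Within groups, SE-BDEV libraries spread most, with a median SD of log2(FPKM + 1) over 11312 genes of 0.0898, against 0.0739 in CON-BDEV and 0.0565 in Vehicle.

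Little of the pathway moved. With both BDEV groups set as 1 against Vehicle, BDEV-treated cells had slightly less Hif1a messenger, less of the low-expressed aldolase gene Aldoc and more of the collagen hydroxylase gene P4ha2. On its own, CON-BDEV passed for all 3 genes and SE-BDEV for Aldoc alone. From the main glycolytic sequence, the 8 enzyme genes Gpi1, Aldoa, Tpi1, Pgk1, Pgam1, Eno1, Pkm and Ldha were not called in either group. No member passed the test between SE-BDEV and CON-BDEV. In bulk RNA, a change in the RNA per cell and a change in the share of cells that express a gene cannot be told apart.

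The test was limma's moderated linear model on log2(FPKM + 1), two-sided, and Benjamini-Hochberg adjustment across every gene that averaged 1 FPKM or more in the libraries compared. A gene was called at an adjusted p under 0.05. Of the 36 members, 31 had enough expression to be tested, and Egln3, Ldhb, Pdk1, Adm and Car9 did not. Between SE-BDEV and Vehicle 0 members rose and 1 fell (3.23% called), where 0.919% of all genes tested were called, 0.292% as higher and 0.628% as lower. Between CON-BDEV and Vehicle 1 rose and 2 fell (9.68%), where 2.84% of all genes were called, 1.02% as higher and 1.82% as lower. With both BDEV groups set against Vehicle in a fit of all 12 libraries, 1 rose and 2 fell (9.68%), where 3.37% of all genes were called, 1.53% as higher and 1.84% as lower. These shares of members rest on 1 to 3 genes, and the 1 call in SE-BDEV is Aldoc, which reached the 1 FPKM minimum through its Vehicle level and was not called with no minimum (adjusted p = 0.0678). They are therefore no support for a shift of the members as a set. At an unadjusted p under 0.05, 7 members passed in SE-BDEV (22.6%, against 14.8% of all genes), 12 in CON-BDEV (38.7%, against 19.1%) and 12 with both groups against Vehicle (38.7%, against 18.8%). The median log2 fold change of the 31 members was −0.02 for SE-BDEV and −0.03 for CON-BDEV, beside 0.01 (SE-BDEV) and 0.00 (CON-BDEV) over all genes tested. For 21 members in SE-BDEV and 23 in CON-BDEV the log2 fold change lay within 0.1 of 0. The 2 comparisons with Vehicle share the 4 Vehicle libraries, so that likeness between them is not independent support.

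**Figure D1:**
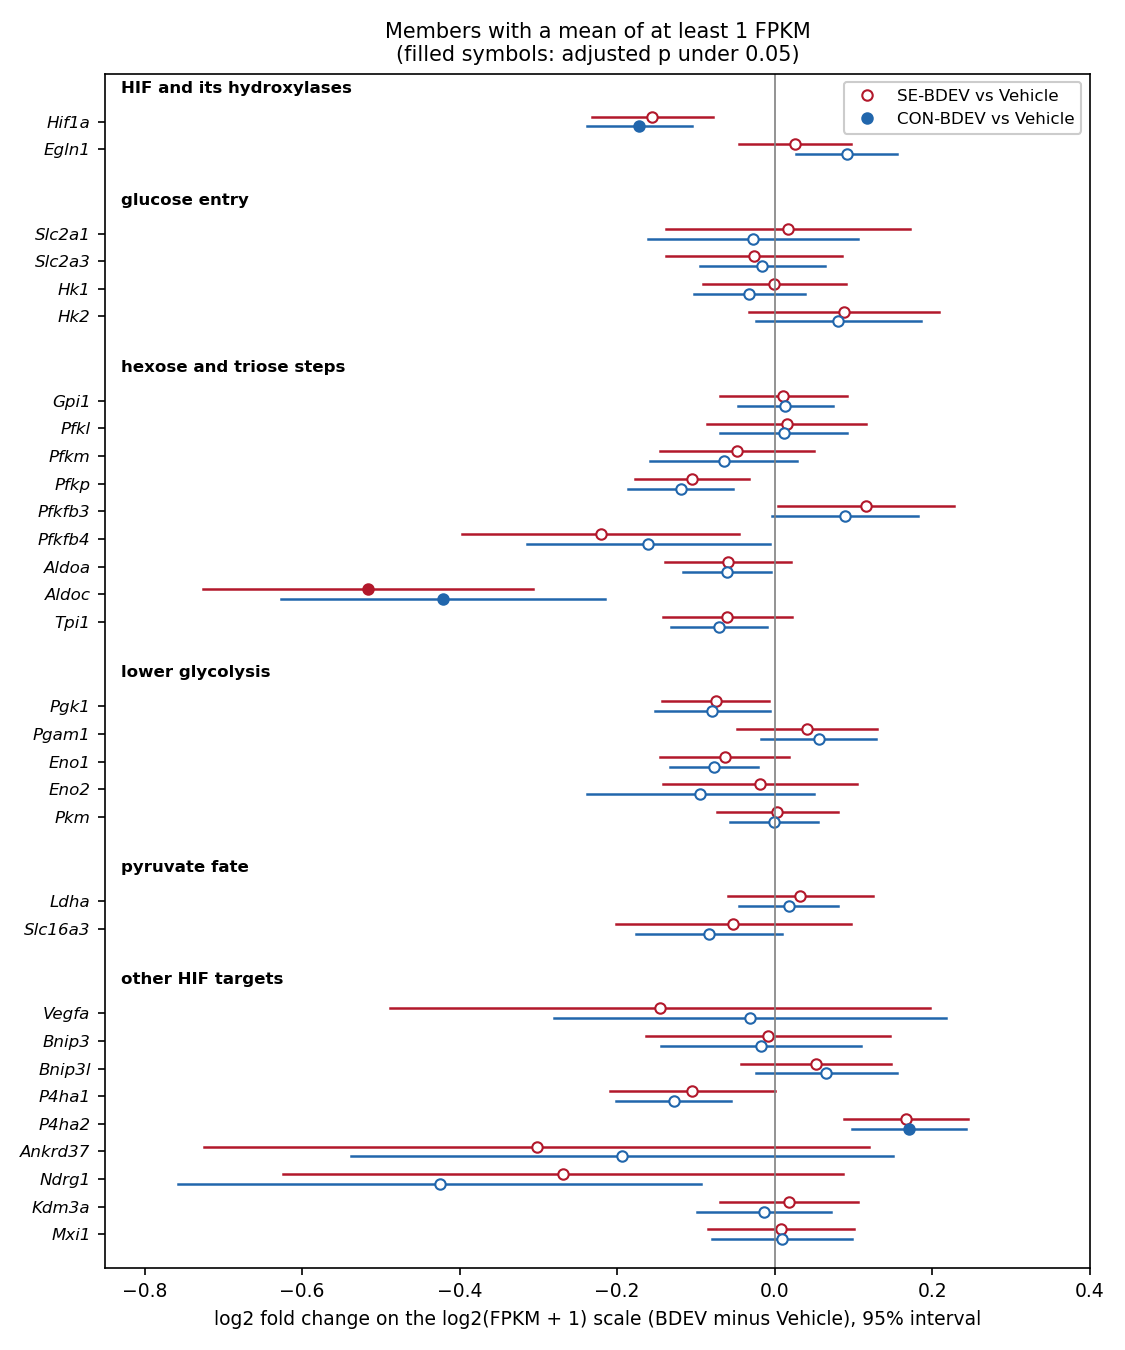
Log2 fold changes of the 31 tested members by role, on the log2(FPKM + 1) scale with 95% intervals, for SE-BDEV against Vehicle (red) and CON-BDEV against Vehicle (blue). Filled symbols mark an adjusted p under 0.05, which Aldoc reached in both comparisons and Hif1a and P4ha2 in CON-BDEV; most other members sit close to 0, and Vegfa, Ankrd37 and Ndrg1 have the widest intervals.

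The promoters of the called members are shown because they carry the short core motifs at which HIF is known to bind, ACGTG and GCGTG. Windows run from 250 bases before to 50 bases after the RefSeq start site (build GRCm38.p6, all on the plus strand). Capitals mark a match to either motif on either strand, where CACGT and CACGC are the reverse strand forms, and the run CACGTG in Hif1a holds ACGTG once on each strand.
Hif1a, chr12:73907617-73907916: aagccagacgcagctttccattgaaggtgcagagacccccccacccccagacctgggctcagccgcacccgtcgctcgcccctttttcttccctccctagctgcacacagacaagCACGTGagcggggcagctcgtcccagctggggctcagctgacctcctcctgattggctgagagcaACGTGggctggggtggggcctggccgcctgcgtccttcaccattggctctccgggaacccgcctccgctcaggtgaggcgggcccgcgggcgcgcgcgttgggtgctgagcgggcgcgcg
Aldoc, chr11:78322823-78323122: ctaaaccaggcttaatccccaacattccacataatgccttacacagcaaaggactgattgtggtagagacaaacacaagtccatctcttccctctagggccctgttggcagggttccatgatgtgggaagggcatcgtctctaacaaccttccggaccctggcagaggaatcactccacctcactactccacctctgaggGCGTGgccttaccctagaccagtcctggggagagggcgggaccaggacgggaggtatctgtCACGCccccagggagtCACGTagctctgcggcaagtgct
P4ha2, chr11:54100674-54100973: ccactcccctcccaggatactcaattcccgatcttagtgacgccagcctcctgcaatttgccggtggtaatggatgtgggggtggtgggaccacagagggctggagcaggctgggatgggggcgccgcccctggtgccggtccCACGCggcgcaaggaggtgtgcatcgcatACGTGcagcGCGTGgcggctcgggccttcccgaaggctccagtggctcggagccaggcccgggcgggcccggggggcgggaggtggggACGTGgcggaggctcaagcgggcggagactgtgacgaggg
The Hif1a window had 3 matches, all to ACGTG. The Aldoc window had 3, of which 2 were GCGTG, and a further Aldoc start in the table had 1. The P4ha2 window had 4, of which 2 were GCGTG. Among the 33 members with a window in the table, 22 (66.7%) held ACGTG, against 21.8% of the 27025 genes in the table, and 21 (63.6%) held GCGTG, against 35.2% of all genes. A match of either kind stood in 30 members (90.9%) and in 46.7% of all genes. Members have more start sites in the table (51 windows for 33 genes, against 32851 for 27025), which raises a share per gene. Per window, ACGTG stood in 51.0% for members against 19.6% of all windows, GCGTG in 51.0% against 32.4%, and either in 76.5% against 43.8%. The members were picked in part as HIF targets, so these shares are a description, and a match says nothing on whether the factor was bound in these cells.

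Hif1a (mm9 chromosome 12, 75008854 to 75048517) encodes the oxygen-regulated subunit of HIF-1. Its level was 51.2, 51.2, 47.8 and 50.4 FPKM in SE-BDEV replicates 1 to 4, 51.3, 48.1, 49.4 and 49.4 FPKM in CON-BDEV, and 56.1, 56.7, 54.2 and 56.7 FPKM in Vehicle. All 8 BDEV libraries lay below all 4 Vehicle libraries, and the BDEV groups overlapped each other. The mean was 50.1 ± 1.62 FPKM over SE-BDEV libraries, 49.6 ± 1.32 over CON-BDEV libraries and 55.93 ± 1.178 over Vehicle libraries (SD, n = 4 each), a difference from Vehicle of −10.4% for SE-BDEV and −11.4% for CON-BDEV. Hif1a fell in CON-BDEV by 0.17 on the log2 scale (standard error 0.03, limma adjusted p = 0.0139). The SE-BDEV value was of like size but missed the threshold (−0.16, standard error 0.03, adjusted p = 0.0695). With both BDEV groups against Vehicle, Hif1a fell by 0.16 on the log2 scale (adjusted p = 0.00768), and it kept that call in each of the 12 fits that left out 1 library (highest adjusted p = 0.0413). The CON-BDEV call was lost without Vehicle replicate 1, 2 or 4 (limma adjusted p = 0.0513, 0.0528 and 0.0516) and with the replicate number as a block (0.0634). The SE-BDEV value passed without SE-BDEV replicate 2 (0.0374).

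The hydroxylases that mark HIF for destruction were split by level. Egln1, the main oxygen sensor among them, had 31.8, 32.7, 33.1 and 32.3 FPKM in SE-BDEV, 33.7, 34.1, 35.0 and 33.3 in CON-BDEV, and 31.8, 32.2, 31.4 and 32.2 in Vehicle. All 4 CON-BDEV libraries lay above all libraries of both other groups, while SE-BDEV and Vehicle overlapped. Its log2 fold change was 0.09 in CON-BDEV (limma adjusted p = 0.12) and 0.03 in SE-BDEV (0.762), so it passed in neither. Egln1 was also the 1 tested member (3.23%) whose SE-BDEV and CON-BDEV libraries did not overlap, against 1.39% of all genes tested. Its difference was −0.07 on the log2 scale, with an unadjusted limma p of 0.0432 and an adjusted p that rounds to 1. Egln3, a hydroxylase gene that HIF itself induces, stayed between 0.0538 and 0.252 FPKM in all 12 libraries. Of 14 tested genes in a list of the HIF pathway core, which holds the partner gene Arnt, the ligase gene Vhl and the asparagine hydroxylase gene Hif1an, 0 rose and 0 fell in either comparison with Vehicle, and 0 in SE-BDEV and 3 in CON-BDEV (21.4%) had an unadjusted p under 0.05, against 14.8% and 19.1% of all genes.

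Aldoc (mm9 chromosome 11, 78136575 to 78141280) encodes aldolase C, the isoenzyme of brain that splits fructose bisphosphate into triose phosphates. It had 0.997, 0.971, 0.628 and 1.02 FPKM in SE-BDEV, 0.795, 1.24, 0.927 and 1.182 FPKM in CON-BDEV, and 1.60, 1.91, 1.68 and 1.67 FPKM in Vehicle. All BDEV libraries again lay below all Vehicle libraries, and the BDEV groups overlapped each other. Aldoc fell by 0.52 on the log2 scale in SE-BDEV (standard error 0.09, limma adjusted p = 0.0348) and by 0.42 in CON-BDEV (standard error 0.09, adjusted p = 0.0401). Between SE-BDEV and CON-BDEV the log2 fold change was −0.10 (95% interval −0.31 to 0.12). At so low a level the added 1 FPKM shrinks the ratio: with 0.1 FPKM added in its place, the log2 fold change was −0.87 in SE-BDEV and −0.69 in CON-BDEV, and the authors' deposited table gives −0.92 (q = 0.00686) for SE-BDEV and −0.73 (q = 0.00505) for CON-BDEV.

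The counts behind the Aldoc values were small. An estimated 22.7 to 44.5 fragments per SE-BDEV library, 32.3 to 45.8 per CON-BDEV library and 70.8 to 86.7 per Vehicle library fell on the gene. The estimates took the longest transcript of Aldoc (2786 bases), and a shorter one would lower them. Its mean over SE-BDEV libraries, 0.905 ± 0.186 FPKM, is under the 1 FPKM minimum, against 1.04 ± 0.211 in CON-BDEV and 1.72 ± 0.133 in Vehicle (SD, n = 4 each), so it entered the SE-BDEV test through its Vehicle level. With no minimum the adjusted p was 0.0678 in SE-BDEV and 0.0576 in CON-BDEV, and 0.0155 with both BDEV groups against Vehicle. In that last comparison Aldoc kept its call in all 12 fits that left out 1 library (highest adjusted p = 0.0464). Alone, the SE-BDEV call held without SE-BDEV replicate 2 (0.0291) or 4 (0.0431) and was lost without any of the other 6 libraries (replicates 1 and 3 of SE-BDEV and the 4 Vehicle libraries, up to 0.123). The CON-BDEV call held without CON-BDEV replicate 2 (0.0288) and was lost without any of the other 7 (up to 0.109). With the replicate number as a block, the SE-BDEV call (limma adjusted p = 0.0957) and the CON-BDEV call (0.0792) were lost too. Most BDEV libraries were also shallower than the Vehicle libraries, and the part of depth in this result was not tested. Aldoc is known as a gene of astrocytes in brain, and the 6 astrocyte markers were near 0 in all 3 groups.

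P4ha2 (mm9 chromosome 11, 53914426 to 53945169) and P4ha1 (chromosome 10, 58786044 to 58836052) encode alternative catalytic subunits of the enzyme that hydroxylates proline in collagen, and both are known HIF targets. P4ha2 had 49.97, 53.7, 50.1 and 52.3 FPKM in SE-BDEV, 49.5, 53.1, 50.8 and 53.3 FPKM in CON-BDEV, and 45.5, 44.7, 46.9 and 46.1 FPKM in Vehicle. All 8 BDEV libraries stood above all Vehicle libraries. P4ha2 rose by 0.17 on the log2 scale in CON-BDEV (standard error 0.03, limma adjusted p = 0.0228), while in SE-BDEV the same size of change missed the threshold (0.17, standard error 0.04, adjusted p = 0.0583). It rose by 0.17 with both BDEV groups against Vehicle (adjusted p = 0.00968), and kept that call in all 12 fits that left out 1 library (highest adjusted p = 0.0476). In CON-BDEV alone the call was lost on leaving out CON-BDEV replicate 4 or any 1 Vehicle library (limma adjusted p up to 0.0775). It was also lost with no mean-variance trend (0.0584) and with the replicate number as a block (0.0770). The SE-BDEV value passed without SE-BDEV replicate 2 (0.0425).

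P4ha1 lay on the other side of Vehicle. It had 26.3, 23.4, 26.6 and 26.9 FPKM in SE-BDEV, 26.2, 24.5, 25.6 and 25.2 in CON-BDEV, and 27.4, 27.5, 27.6 and 28.7 in Vehicle. No BDEV library reached the lowest Vehicle library. Its log2 fold changes of −0.10 in SE-BDEV (limma adjusted p = 0.339), −0.13 in CON-BDEV (0.0667) and −0.12 with both groups against Vehicle (0.114) did not pass, though it was called lower in CON-BDEV without CON-BDEV replicate 1 (adjusted p = 0.0421). Pfkp, the platelet-type phosphofructokinase of the committed step of glycolysis, had the same layout: 101, 100, 94.2 and 101 FPKM in SE-BDEV, 95.1, 104, 98.2 and 96.3 in CON-BDEV, and 106, 107, 108 and 107 in Vehicle. No BDEV library reached the lowest Vehicle library here either, yet Pfkp did not pass either, with −0.10 (adjusted p = 0.173) in SE-BDEV and −0.12 (0.0642) in CON-BDEV. It was called lower in CON-BDEV without CON-BDEV replicate 2 (adjusted p = 0.0152), and with both BDEV groups against Vehicle without replicate 2 of either (0.0275 without the CON-BDEV library and 0.0469 without the SE-BDEV library). In all, 6 tested members in SE-BDEV (19.4%) and 7 in CON-BDEV (22.6%) had libraries that did not overlap with Vehicle, against 10.2% and 11.9% of all genes tested. All 8 BDEV libraries stood on 1 side of Vehicle for 5 members (16.1%), against 5.19% of all genes.

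**Figure D2:**
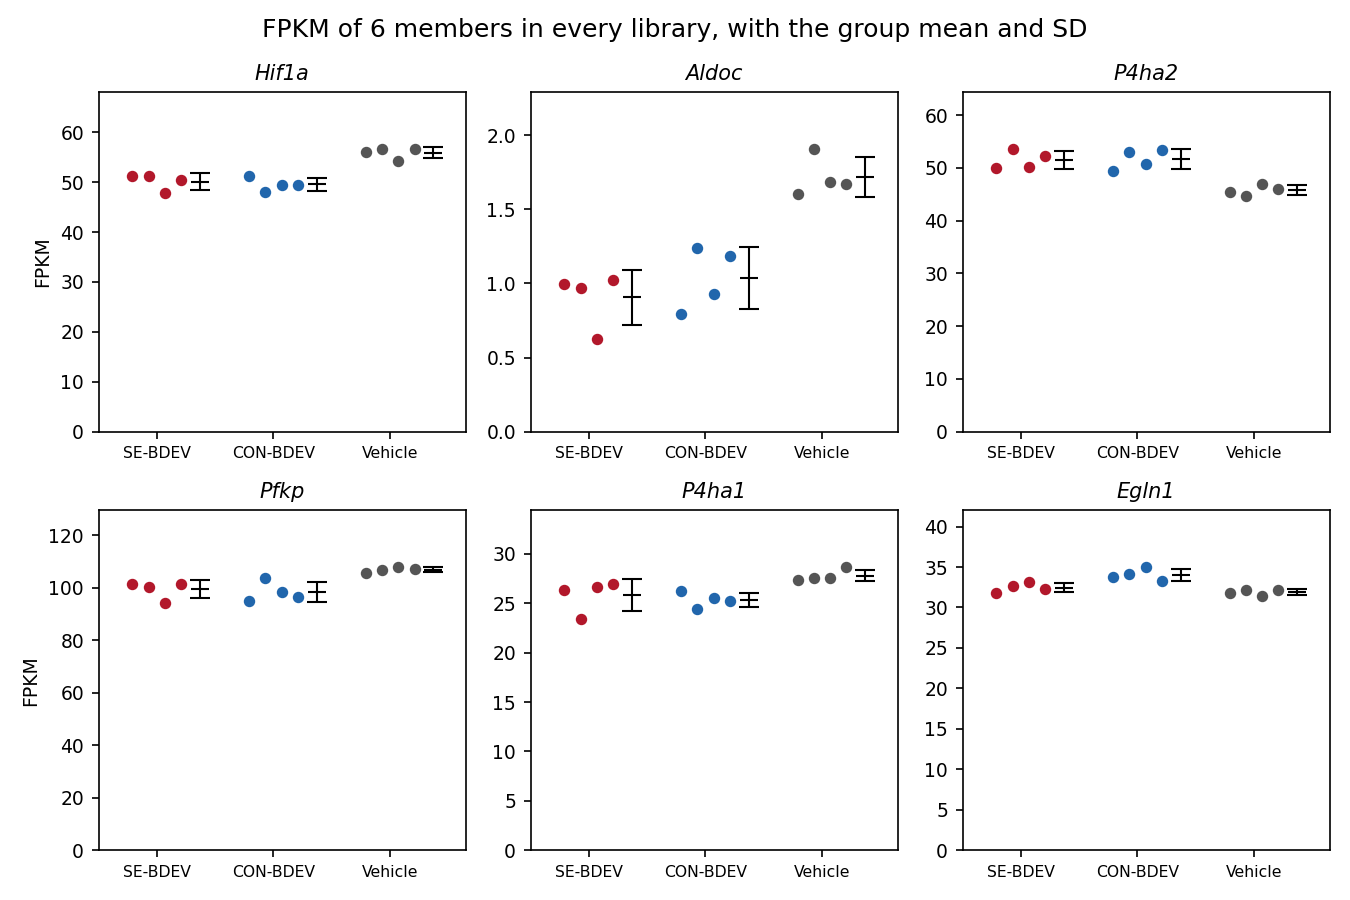
FPKM of Hif1a, Aldoc, P4ha2, Pfkp, P4ha1 and Egln1 in each of the 12 libraries (points, replicates 1 to 4 from left to right), with the group mean and SD (bars, n = 4), for SE-BDEV, CON-BDEV and Vehicle. Hif1a, Aldoc, Pfkp and P4ha1 are lower, and P4ha2 higher, in all 8 BDEV libraries than in all 4 Vehicle libraries; Egln1 is highest in CON-BDEV.

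Glucose enters cells through transporters such as Slc2a1 and Slc2a3 and is held there by the hexokinases Hk1 and Hk2. None of the 4 passed in any comparison. Hk1, the constitutive hexokinase, had 90.5, 84.2, 94.5 and 91.2 FPKM in SE-BDEV, 89.0, 90.5, 88.0 and 84.7 in CON-BDEV, and 89.7, 86.3, 90.9 and 93.3 in Vehicle. Its groups overlapped throughout, with log2 fold changes of −0.00 in SE-BDEV and −0.03 in CON-BDEV. Hk2, the hexokinase that HIF induces, had 32.4, 38.2, 33.6 and 32.5 FPKM in SE-BDEV, 31.9, 36.5, 35.1 and 32.3 in CON-BDEV, and 30.3, 32.0, 32.6 and 33.2 in Vehicle. Replicate 2 was the highest of its group in both BDEV groups, and the log2 fold changes of 0.09 in SE-BDEV (limma adjusted p = 0.484) and 0.08 in CON-BDEV (0.386) did not pass. Slc2a1, the ubiquitous glucose transporter and a HIF target, had 16.9, 14.5, 17.4 and 16.1 FPKM in SE-BDEV, 14.6, 16.4, 16.1 and 15.6 in CON-BDEV, and 14.3, 16.9, 17.4 and 15.4 in Vehicle. The ranges of the 3 groups overlapped. Slc2a3, the high-affinity transporter of neurons, averaged 57.8 ± 4.31 FPKM in SE-BDEV libraries, 58.2 ± 2.83 in CON-BDEV libraries and 58.8 ± 0.932 in Vehicle libraries (SD, n = 4 each).

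The enzymes of the main sequence were among the most abundant messengers of these cells, and none was called. Aldoa, the main aldolase, had 642, 608, 662 and 667 FPKM in SE-BDEV, 648, 645, 631 and 651 in CON-BDEV, and 662, 651, 688 and 685 in Vehicle. Its log2 fold change was −0.06 in both, with a limma adjusted p of 0.481 in SE-BDEV and 0.227 in CON-BDEV. Pkm, the pyruvate kinase gene, had 640, 615, 671 and 652 FPKM in SE-BDEV, 645, 643, 650 and 631 in CON-BDEV, and 619, 641, 651 and 661 in Vehicle, with means of 645 (SE-BDEV), 642 (CON-BDEV) and 643 FPKM (Vehicle). Ldha, which turns pyruvate into lactate, had 840, 749, 838 and 835 FPKM in SE-BDEV, 840, 788, 801 and 798 in CON-BDEV, and 765, 806, 816 and 799 in Vehicle. At rank 93 of all rows by its mean, Ldha was the highest member, and its log2 fold changes were 0.03 in SE-BDEV and 0.02 in CON-BDEV. The SE-BDEV library that stood lowest in all 3 genes was replicate 2.

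Summed over Gpi1, Aldoa, Tpi1, Pgk1, Pgam1, Eno1, Pkm and Ldha, the 8 enzymes took 3472 to 3782 FPKM per SE-BDEV library, 3617 to 3743 per CON-BDEV library and 3616 to 3794 per Vehicle library. As a share of all FPKM that was 0.656% to 0.705% over SE-BDEV libraries, 0.675% to 0.686% over CON-BDEV libraries and 0.667% to 0.696% over Vehicle libraries, so the groups overlapped. None of the 8 passed. Their 95% intervals, on the FPKM + 1 scale, together spanned −9.58% to 9.45% for SE-BDEV and −10.03% to 9.37% for CON-BDEV. In CON-BDEV the intervals of Aldoa, Tpi1, Pgk1 and Eno1 were wholly negative (log2 fold changes −0.06, −0.07, −0.08 and −0.08). Those of Gpi1, Pgam1, Pkm and Ldha spanned both signs. In SE-BDEV only the interval of Pgk1 was wholly negative (log2 fold change −0.07). For Eno1 all CON-BDEV libraries lay below all Vehicle libraries, while SE-BDEV and Vehicle overlapped. The hexokinase and phosphofructokinase genes are not among the 8. Gapdh, a further enzyme of the sequence and not a member, averaged 1248 ± 57.8 FPKM over SE-BDEV libraries and 1254 ± 21.2 over CON-BDEV libraries. Over Vehicle libraries it averaged 1299.9 ± 18.3 (SD, n = 4 each). Its log2 fold change was −0.06 in SE-BDEV (limma adjusted p = 0.468) and −0.05 in CON-BDEV (0.238). Values of Eno1 are uncertain, because a row Eno1b overlaps it, with 168 FPKM in each BDEV group and 182 in Vehicle. Hk1, Pfkm, Pfkp, Tpi1 and Ankrd37 also overlap another row of the tables, and the strand setting of the counting is not given in the sources used here.

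**Figure D3:**
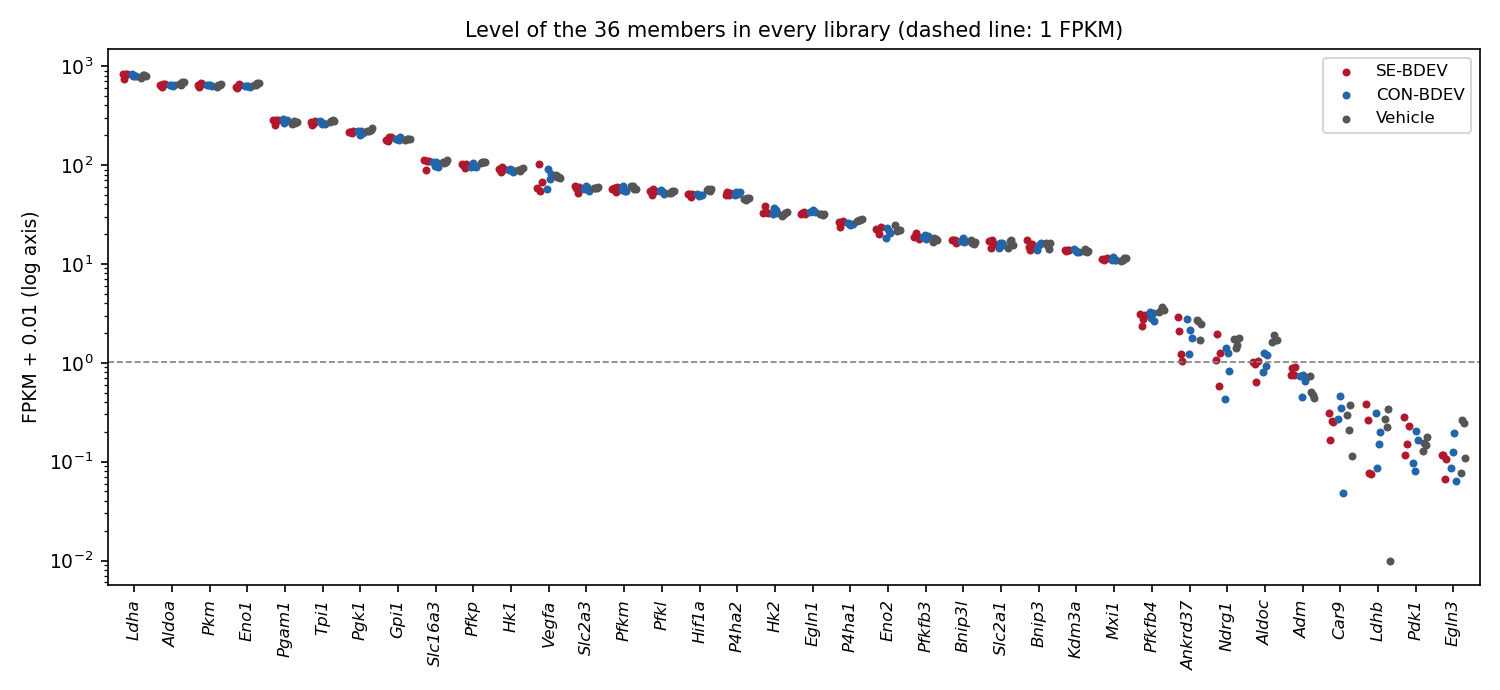
FPKM of all 36 members in every library, ordered by their mean over the 12 libraries, on a log axis after adding 0.01, with SE-BDEV (red), CON-BDEV (blue) and Vehicle (grey) side by side. Ldha, Aldoa, Pkm and Eno1 lead at about 640 FPKM or more, their sister genes Aldoc and Ldhb lie near or below the dashed line at 1 FPKM, and the groups coincide for most genes.

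For aldolase and lactate dehydrogenase the line expressed almost 1 isoenzyme gene alone. Over 12 libraries Aldoa averaged 653 FPKM where Aldoc averaged 1.22, and Ldha averaged 806 where Ldhb, the heart-type subunit, averaged 0.189. The enolases stood closer, with Eno1 at 640 FPKM and the neuronal Eno2 at 21.8. Eno2 had 22.4, 22.1, 20.3 and 23.5 FPKM in SE-BDEV, 18.4, 23.2, 21.6 and 20.5 in CON-BDEV, and 24.4, 21.4, 21.8 and 21.8 in Vehicle. The groups overlapped, and its log2 fold changes of −0.02 in SE-BDEV (limma adjusted p = 0.908) and −0.09 in CON-BDEV (0.472) did not pass. All 3 phosphofructokinase genes were expressed, with Pfkl at 53.4, Pfkm at 57.4 and Pfkp at 101 FPKM on average.

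The enzymes that set the level of fructose 2,6-bisphosphate, the activator of phosphofructokinase, leaned in opposite directions. Pfkfb3, whose product mostly makes the activator, had 18.9, 20.7, 19.2 and 17.8 FPKM in SE-BDEV, 18.7, 19.4, 17.7 and 19.2 in CON-BDEV, and 16.6, 18.4, 17.7 and 17.6 in Vehicle. Pfkfb4 had 3.11, 2.33, 2.77 and 3.06 FPKM in SE-BDEV, 3.25, 2.85, 3.20 and 2.61 in CON-BDEV, and 3.24, 3.41, 3.68 and 3.43 in Vehicle. All SE-BDEV libraries were below Vehicle for Pfkfb4, while CON-BDEV and Vehicle touched. Neither gene passed. The log2 fold change of Pfkfb3 was 0.12 in SE-BDEV (limma adjusted p = 0.32) and 0.09 in CON-BDEV (0.276), and that of Pfkfb4 was −0.22 in SE-BDEV (0.226) and −0.16 in CON-BDEV (0.243).

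Pyruvate can leave the cell as lactate or enter the mitochondria. Slc16a3, the lactate exporter that HIF induces, had 111, 88.4, 110 and 110 FPKM in SE-BDEV, 108, 98.8, 107 and 95.6 in CON-BDEV, and 108, 105, 108 and 113 in Vehicle. Replicate 2 of SE-BDEV was the lowest of the 12, and the log2 fold changes of −0.05 in SE-BDEV (limma adjusted p = 0.766) and −0.08 in CON-BDEV (0.31) did not pass. Pdk1, the kinase by which HIF is known to close the mitochondrial route, was hardly expressed, at 0.0705 to 0.270 FPKM in the 12 libraries. In a list of 11 tested genes for pyruvate entry to mitochondria, 0 rose and 0 fell in SE-BDEV, and 0 rose and 1 fell in CON-BDEV (9.09%, against 2.84% of all genes). By the unadjusted p, 2 passed in each (18.2%, against 14.8% of all genes in SE-BDEV and 19.1% in CON-BDEV). The gene that fell was Pdp2, a phosphatase that turns pyruvate dehydrogenase on. It had 7.54, 5.47, 7.14 and 8.54 FPKM in SE-BDEV, 7.98, 6.54, 7.09 and 5.599 in CON-BDEV, and 9.58, 10.1, 9.46 and 9.56 in Vehicle, with every BDEV library below every Vehicle library. Its log2 fold change was −0.46 in CON-BDEV (adjusted p = 0.0135, at most 0.0483 in the 8 fits that left out 1 library, but 0.0563 with no minimum level) and −0.40 in SE-BDEV (0.0969, not past the threshold).

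The HIF targets outside glycolysis did not move together. Of the 9 tested, 4 had a log2 fold change above 0 in SE-BDEV and 3 in CON-BDEV. Among all genes tested, 6179 of 11311 were above 0 in SE-BDEV and 5891 of 11320 in CON-BDEV. P4ha2 in CON-BDEV was the 1 of the 9 that passed, where 2.84% of all genes were called. Bnip3 and Bnip3l, the mitophagy receptor genes, averaged 15.4 and 17.1 FPKM in SE-BDEV, 15.3 and 17.2 in CON-BDEV, and 15.5 and 16.4 in Vehicle. Kdm3a, a histone demethylase gene, and Mxi1, a MYC antagonist gene, had log2 fold changes of 0.02 and 0.01 in SE-BDEV and −0.01 and 0.01 in CON-BDEV. Car9, the carbonic anhydrase gene widely used as a readout of hypoxia, stayed at 0.0384 to 0.453 FPKM. Adm, the gene of the vasodilator peptide adrenomedullin, had 0.750, 0.882, 0.747 and 0.896 FPKM in SE-BDEV, 0.729, 0.439, 0.748 and 0.646 in CON-BDEV, and 0.730, 0.5003, 0.457 and 0.427 in Vehicle. All SE-BDEV libraries were above all Vehicle libraries for Adm, at a level under the minimum for testing. With no minimum its log2 fold change in SE-BDEV was 0.25 (limma adjusted p = 0.192), and none of the 5 low members passed in any comparison in that fit.

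Vegfa and Ndrg1 differed more between libraries of a BDEV group than between groups. Vegfa, the gene of the main vascular growth factor, had 59.1, 102, 54.3 and 67.7 FPKM in SE-BDEV, 56.6, 91.8, 72.7 and 81.3 in CON-BDEV, and 79.6, 76.2, 75.2 and 73.5 in Vehicle. The BDEV values reached both above and below the narrow range of Vehicle. The coefficient of variation was 30.7% over SE-BDEV libraries, 19.7% over CON-BDEV libraries and 3.41% over Vehicle libraries. In SE-BDEV 98.8% of the 11312 genes had an SD on the log2 scale no larger than that of Vegfa, against 98.2% in CON-BDEV and 40.5% in Vehicle. The log2 fold changes of −0.15 in SE-BDEV (limma adjusted p = 0.705) and −0.03 in CON-BDEV (0.907) did not pass, but without SE-BDEV replicate 2 Vegfa was called lower (−0.34, adjusted p = 0.0268). In CON-BDEV the direction turned without replicate 1 (0.10, adjusted p = 0.403).

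Ndrg1, a stress-induced gene that HIF also drives, had 1.06, 1.93, 0.577 and 1.25 FPKM in SE-BDEV, 0.424, 1.40, 1.24 and 0.814 in CON-BDEV, and 1.74, 1.39, 1.503 and 1.76 in Vehicle. Only SE-BDEV replicate 2 stood above the Vehicle range, and most of the other BDEV libraries stood below it. Its log2 fold changes were −0.27 in SE-BDEV (limma adjusted p = 0.466) and −0.43 in CON-BDEV (0.156), so it was not called here, while the authors' deposited table marks it as significant in CON-BDEV (log2 fold change −0.72, q = 0.00505). That table marks 1 member, Aldoc, in SE-BDEV and 2, Aldoc and Ndrg1, in CON-BDEV, of 32 members it tested in each. Of its 24318 rows, tested or not, it marks 140 in SE-BDEV and 215 in CON-BDEV. Ankrd37, a small gene that is a sensitive HIF target, ranged from 1.04 to 2.87 FPKM in SE-BDEV, 1.22 to 2.79 in CON-BDEV and 1.70 to 2.67 in Vehicle, and did not pass.

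**Figure D4:**
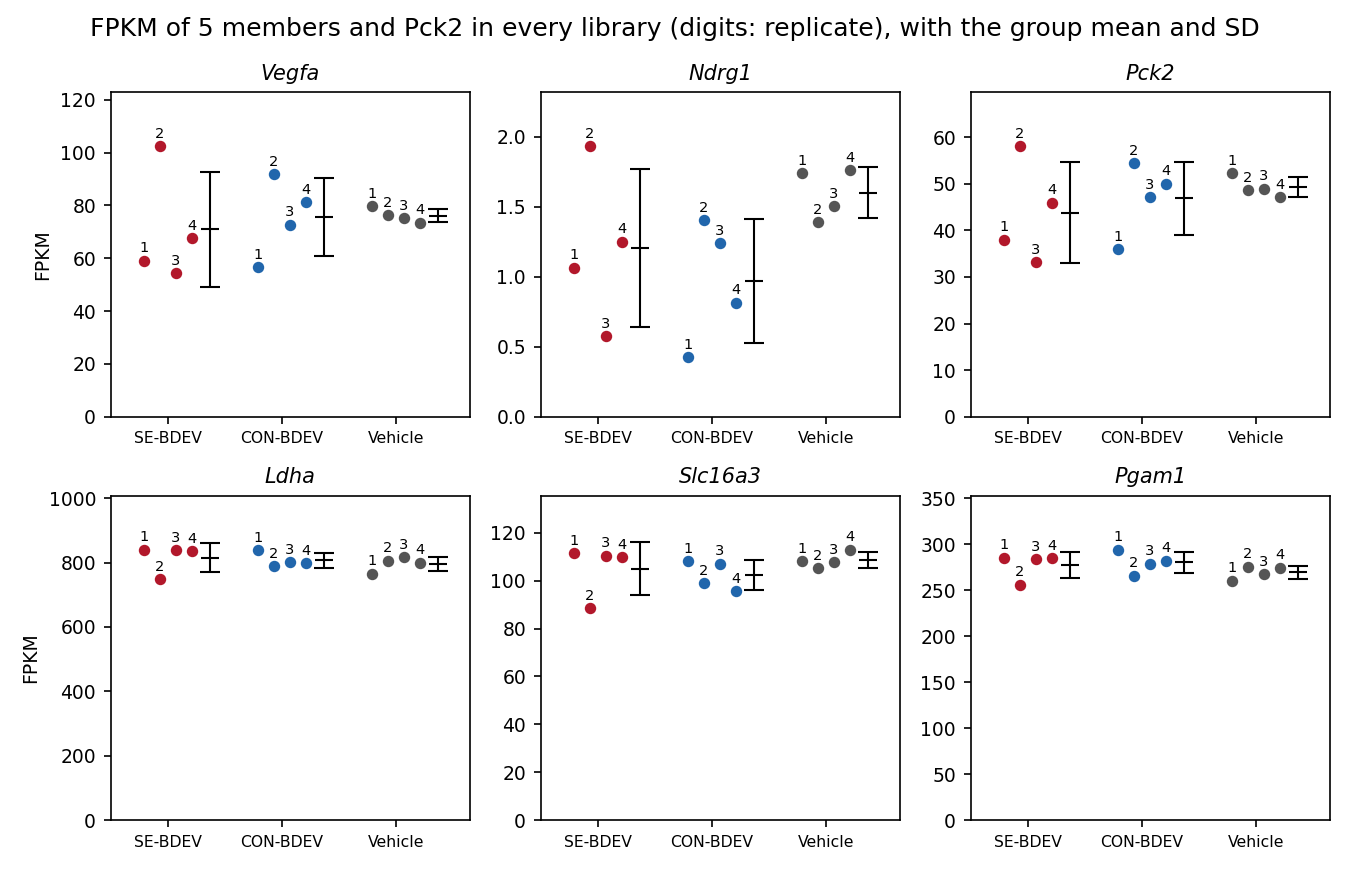
FPKM of Vegfa, Ndrg1, Pck2, Ldha, Slc16a3 and Pgam1 in each library, with digits for the replicate number and the group mean and SD (bars, n = 4) to the right of the points, for SE-BDEV, CON-BDEV and Vehicle. SE-BDEV replicate 2 is the highest SE-BDEV library for Vegfa, Ndrg1 and Pck2 and the lowest for Ldha, Slc16a3 and Pgam1; Vegfa spans 54.3 to 102 FPKM in SE-BDEV and 73.5 to 79.6 in Vehicle.

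The same library, SE-BDEV replicate 2, was the farthest from its group mean for 17 of the 31 tested members (54.8%), against 40.5% of all genes tested. It also led Pck2, the mitochondrial gene of phosphoenolpyruvate synthesis from the list of other glycolytic enzymes. Pck2 had 38.0, 58.1, 33.2 and 46.0 FPKM in SE-BDEV, 36.01, 54.5, 47.2 and 50.02 in CON-BDEV, and 52.3, 48.7, 49.0 and 47.2 in Vehicle. The order of libraries within SE-BDEV was that of Vegfa, from replicate 2 down through 4 and 1 to 3, and the order within CON-BDEV was also that of Vegfa. Without SE-BDEV replicate 2, 4 members were called between SE-BDEV and Vehicle: Hif1a, Aldoc and Vegfa as lower and P4ha2 as higher. The calls among all genes also moved, from 104 with every library to between 5 and 315 on leaving out 1 library. The share of all genes called in the fit without SE-BDEV replicate 2 is not given separately here. With no such share beside them, the 4 calls are no result about the members alone.

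Set directly against each other, SE-BDEV and CON-BDEV gave 0 called members, where 0% of the 11312 genes were called by limma. At an unadjusted p under 0.05, 1 member passed (Egln1), as did 296 genes in all (2.62%). The median log2 fold change was 0.01 over the members and 0.01 over all genes tested. For 28 of the 31 members it lay within 0.1 of 0. The 8 enzymes of the main sequence had 95% intervals that together spanned −6.85% to 7.03%. For Hif1a the difference was 0.02 (95% interval −0.05 to 0.09) and for P4ha2 it was −0.00 (−0.08 to 0.07). Wider intervals held for Vegfa (−0.11, from −0.47 to 0.25) and Ndrg1 (0.16, from −0.24 to 0.55). Those intervals leave room for sizeable differences in either direction.

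Beyond the members, further lists around the pathway were counted, chosen with earlier results of these data known. Of 14 other glycolytic and gluconeogenic enzymes tested, 0 rose and 0 fell by limma in either comparison with Vehicle, with 2 in SE-BDEV (14.3%, against 14.8% of all genes) and 3 in CON-BDEV (21.4%, against 19.1%) at an unadjusted p under 0.05. The same held for 5 other hexose and monocarboxylate transporters (1 in SE-BDEV and 1 in CON-BDEV at the unadjusted p) and for 11 genes of glycogen metabolism (2 in SE-BDEV, or 18.2%, and 5 in CON-BDEV, or 45.5%). The pentose phosphate pathway, which branches off glucose 6-phosphate to make NADPH and ribose, had 10 genes tested. In SE-BDEV 0 rose and 1 fell, in CON-BDEV 0 rose and 1 fell, where 0.919% of all genes were called in SE-BDEV and 2.84% in CON-BDEV. At an unadjusted p under 0.05 stood 3 in SE-BDEV (30.0%, against 14.8% of all genes) and 5 in CON-BDEV (50%, against 19.1%). In each comparison 9 of the 10 had a log2 fold change below 0, against 45.4% of all genes in SE-BDEV and 47.96% in CON-BDEV. The list's median was −0.08 in SE-BDEV and −0.06 in CON-BDEV.

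Rpia, the isomerase that makes ribose 5-phosphate, had 13.5, 12.3, 13.1 and 13.9 FPKM in SE-BDEV, 14.3, 14.2, 15.7 and 12.02 in CON-BDEV, and 16.9, 17.4, 17.1 and 17.0 in Vehicle. All BDEV libraries lay below all Vehicle libraries. It fell by 0.35 on the log2 scale in SE-BDEV (standard error 0.04, limma adjusted p = 0.0122) and missed the threshold in CON-BDEV (−0.27, adjusted p = 0.0521). The SE-BDEV call was lost without Vehicle replicate 1, 2 or 3 (adjusted p = 0.0653, 0.0571 and 0.0644) and with no minimum level (0.0554). With both BDEV groups against Vehicle Rpia was called in all 12 such fits. Tkt, the transketolase that links the pathway back to glycolysis, had 95.1, 83.0, 92.2 and 101 FPKM in SE-BDEV, 93.4, 91.5, 94.3 and 86.9 in CON-BDEV, and 105, 100, 102 and 104 in Vehicle. CON-BDEV lay wholly below Vehicle, and SE-BDEV overlapped it in replicate 4. Tkt fell in CON-BDEV (−0.17, standard error 0.03, limma adjusted p = 0.0219) and had −0.15 in SE-BDEV (0.232). The CON-BDEV call of Tkt was lost without CON-BDEV replicate 4 or Vehicle replicate 1, 3 or 4 (up to 0.0778). It was also lost with no mean-variance trend (0.0639) and with the replicate number as a block (0.0689).

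Of 29 further HIF targets tested, 0 rose and 2 fell in each comparison with Vehicle, Bhlhe40 and Narf both times (6.90% called, against 0.919% of all genes in SE-BDEV and 2.84% in CON-BDEV). At an unadjusted p under 0.05 stood 8 in SE-BDEV (27.6%, against 14.8% of all genes) and 10 in CON-BDEV (34.5%, against 19.1%). Bhlhe40, a repressor of transcription tied to the circadian clock, had 11.8, 13.2, 10.3 and 11.9 FPKM in SE-BDEV, 9.41, 12.1, 11.7 and 10.7 in CON-BDEV, and 17.7, 14.3, 15.6 and 16.8 in Vehicle. No BDEV library reached a Vehicle library. Bhlhe40 fell by 0.42 on the log2 scale in SE-BDEV (limma adjusted p = 0.0367) and by 0.52 in CON-BDEV (0.00732). Narf, which encodes a protein that binds prelamin A, had 3.93, 3.11, 3.43 and 4.06 FPKM in SE-BDEV, 3.79, 3.23, 3.72 and 3.75 in CON-BDEV, and 4.72, 5.15, 5.29 and 5.02 in Vehicle. It fell by 0.39 in both (limma adjusted p = 0.0451 in SE-BDEV and 0.00753 in CON-BDEV). The CON-BDEV calls of both genes held in each of the 8 fits that left out 1 library, and the SE-BDEV calls did not: Bhlhe40 held without SE-BDEV replicate 2 and was lost without any of the other 7 libraries (up to 0.127), and Narf held without SE-BDEV replicate 2 or 4 and was lost without any of the other 6 (up to 0.1504). Both SE-BDEV calls were also lost with no minimum level (0.108 for Bhlhe40 and 0.115 for Narf), and that of Bhlhe40 with no mean-variance trend (0.0597). With the replicate number as a block, both SE-BDEV calls were lost too (0.0841 for Bhlhe40 and 0.122 for Narf). The list as a whole had a median log2 fold change of 0.01 in SE-BDEV and 0.03 in CON-BDEV, and these falls stood beside 15 genes in SE-BDEV and 16 in CON-BDEV with a log2 fold change above 0. Among all genes tested, 6179 of 11311 were above 0 in SE-BDEV and 5891 of 11320 in CON-BDEV. With both BDEV groups against Vehicle, 2 of the 29 rose and 3 fell by limma (17.2% called, against 3.37% of all genes). Those that rose were Nrn1, a neurite growth gene (0.18, adjusted p = 0.0159), and Plod1, a collagen lysyl hydroxylase gene (0.13, 0.0431). Besides Bhlhe40 and Narf, Wsb1, a ubiquitin ligase gene, fell (−0.12, 0.0497). Nrn1 lost its call without Vehicle replicate 1 or 3 (up to 0.0815). Plod1 held without SE-BDEV replicate 2 or CON-BDEV replicate 1 and Wsb1 without SE-BDEV replicate 1, and each lost its call without any other library (up to 0.161 and 0.149). Plod1 and Wsb1 were also not called with no minimum level or with no mean-variance trend (0.0567 to 0.0748). Over all settings that kept every library, the adjusted p reached 0.0691 for Plod1 and 0.0769 for Wsb1.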

How the data were processed

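Messenger RNA of N2a cells was sequenced in 12 libraries, 4 per group. The authors deposited FPKM per gene and library, 1 table for SE-BDEV with Vehicle and 1 for CON-BDEV with Vehicle, made with TopHat2 and Cuffdiff on mm9, per the submitters' processing notes. A second pair of deposited tables from the authors holds, by its headers, Cuffdiff log2 fold changes, p-values, q-values, group FPKM and a test score; the score was not used. No source used here gives versions, annotation, strand setting or read filters. The Vehicle columns of the tables differed by a scale of at most 0.0335% (median per library) and by at most 0.116% for any gene above 1 FPKM. Both tables were therefore taken to be on 1 scale, with no rescaling. In fits of 12 libraries, Vehicle was the mean of its values in both tables. The FPKM values are not counts, so log2(FPKM + 1) was tested with limma 3.58.1 in R 4.3.3 (mean-variance trend, two-sided, no covariate), within the own table for comparisons with Vehicle. Genes averaging 1 FPKM or more in a fit entered it. A fold change on this scale understates the change of low genes. Depth is unknown and was estimated from the lowest values of genes with transcripts of 1500 to 8000 bases; it is approximate. Tables and figures were made in Python 3.11.15 with pandas 2.3.3 and matplotlib 3.10.9, and the fit was tested on simulated data. The members, the further lists and the markers were chosen with earlier results of these data known. Given with every library were called members, and in each role the member with the highest mean and the one with the largest change; other members were added for their role or their libraries' layout after their values were seen. Promoters come from RefSeq (GRCm38.p6), not from mm9. Alternatives were other pseudocounts, filters, scaling, no trend, a replicate block and leaving out each library.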

Additional observations from a re-analysis of the deposited data

Results flagged for a closer look

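In 11 of 108 groups of 4 libraries, 1 library stood apart from the other 3 by more than the critical gap for groups of that size, where chance gives about 1 in 20. Of the 11, 4 concern SE-BDEV replicate 2, which was low for Ldha (749 FPKM, others 835 to 840), Slc16a3 (88.4, others 110 to 111), Pgam1 (256, others 284 to 285) and P4ha1 (23.4, others 26.3 to 26.9). Aldoc was low in SE-BDEV replicate 3 (0.628 FPKM, others 0.971 to 1.02). In SE-BDEV replicate 4, Bnip3l was low (16.3 FPKM, others 17.3 to 17.4) and Mxi1 high (11.5, others 11.04 to 11.11). In CON-BDEV replicate 2, Pfkm was high (61.1 FPKM, others 54.4 to 55.4), as was Mxi1 (11.8, others 11.03 to 11.05). Tpi1 was high in CON-BDEV replicate 1 (277 FPKM, others 261 to 263). Eno2 was high in Vehicle replicate 1 (24.4 FPKM, others 21.4 to 21.8).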

How the results depend on the processing

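Of 210 alternative values for the counts of calls and the medians, 169 stayed near the main value and 41 moved. Of 1947 for single genes, 1816 stayed on their side of the threshold, near the main value where not called, 92 lost a call, 22 gained one and 17 moved. Among them, 381 were called as reported, under the alternative or both, and none of these changed sign, while 74 of the 1566 called in neither did. Members called in SE-BDEV numbered 0 with no filter on low values, 0 at a mean of at least 5 FPKM (where Aldoc was not tested) and 0 with the replicate block. All genes called in SE-BDEV by limma numbered 0 with no filter (2021 at an unadjusted p under 0.05) and 48 with the block. In CON-BDEV, members called numbered 0 with the block, and all genes called numbered 176 with no filter, 183 with no mean-variance trend and 135 with the block. Both BDEV groups against Vehicle gave 225 genes with no filter. Leaving out each library in turn, SE-BDEV gave 0 to 4 members and 5 to 315 genes, CON-BDEV 0 to 4 members and 134 to 556 genes, and both groups against Vehicle 3 to 4 members and 124 to 510 genes. With both groups against Vehicle, Hif1a and P4ha2 kept their calls in all other settings tried, the replicate block included, and so did Aldoc wherever it was tested. Whether replicate numbers pair the samples is not stated. By the numbers in their names, SE-BDEV and CON-BDEV libraries alternate and all Vehicle libraries come last. What that order stands for is not stated, and a difference between BDEV and Vehicle cannot be told apart from it. Deviations from the group mean in same-numbered SE-BDEV and CON-BDEV libraries had correlations of 0.196, 0.298, −0.0738 and −0.123. SE-BDEV replicates 1 and 2 correlated best with the CON-BDEV library of their own number, and not every library did so. Deviations within a group of 4 sum to 0, so these correlations cannot decide on a pairing. The causes of these moves were not tested.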
